A study of Homo sapiens with 6 samples.

Results

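The regions described here are the sites at which the HA-tagged short isoform of DPF3, DPF3a, was cross-linked to chromatin in 786-O cells, an established clear cell renal cell carcinoma line. They are all peaks of the DPF3a list on chromosomes 1 to 22 and X, which are 51440 of the 51530 peaks of that list and of the 118277 peaks of the 3 lists in the series. The summit of each peak, the base with the highest read pileup, stands for the site, and coordinates are in hg38, counted from 1.

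DPF3a was measured by chromatin immunoprecipitation followed by sequencing (ChIP-seq) with an antibody to the HA tag. The cells overexpressed HA-DPF3a from a lentiviral vector that also encodes mCherry, while their native DPF3 was, per the study, almost undetectable. Per its methods they were fixed with the protein crosslinker DSG and then with formaldehyde. The group has 2 replicate libraries, and SMAD4 and p300, measured in 786-O cells fixed with formaldehyde only, have 2 each, and the labels do not say whether those cells overexpressed DPF3a. The deposited DPF3a list was made from both libraries, so no spread between replicates can be given and no test was possible. Intervals in parentheses are 95% Wilson intervals for shares and binomial order-statistic intervals for medians, and cover counting error only. Because the protein was overexpressed and tagged, the sites are those of the introduced protein. A peak list without expression data shows where the protein was found, not whether a gene there was regulated.

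DPF3 is a subunit of the BAF form of SWI/SNF, the ATP-dependent complexes that slide and evict nucleosomes at promoters and enhancers. Its long isoform, DPF3b, has a pair of PHD fingers that read acetylated histone tails, and the short isoform ends differently and lacks a complete pair. SWI/SNF complexes have no strong sequence preference of their own and are known to be brought to enhancers by factors such as AP-1, the dimer of FOS and JUN proteins that binds TGACTCA.

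Sites of high fold enrichment are shown first as sequence, because the AP-1 consensus recurs in them and they are referred to below. Each line is the plus strand in hg38 of a summit and 50 bp on either side, with the AP-1 consensus (TGACTCA or TGAGTCA) in capitals. They were taken, for having the consensus within 50 bp of the summit, from the strongest loci, the strongest promoters and the strongest members of gene groups described below.
FOXN3 locus, chr14:89137684-89137784: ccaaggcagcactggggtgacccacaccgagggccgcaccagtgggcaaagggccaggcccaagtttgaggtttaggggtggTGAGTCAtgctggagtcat
NT5C2 locus, chr10:103273103-103273203: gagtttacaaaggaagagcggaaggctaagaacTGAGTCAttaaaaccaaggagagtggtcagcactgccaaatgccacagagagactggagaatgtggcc
MEFV promoter, chr16:3257211-3257311: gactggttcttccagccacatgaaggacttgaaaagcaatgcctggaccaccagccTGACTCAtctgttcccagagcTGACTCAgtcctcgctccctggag
ARHGEF2 promoter, chr1:155962074-155962174: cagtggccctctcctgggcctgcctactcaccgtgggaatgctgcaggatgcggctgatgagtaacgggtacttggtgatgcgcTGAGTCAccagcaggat
COL16A1 promoter, chr1:31689942-31690042: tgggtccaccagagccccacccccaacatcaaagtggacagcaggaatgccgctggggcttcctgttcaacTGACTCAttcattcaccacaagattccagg
HILPDA promoter, chr7:128455619-128455719: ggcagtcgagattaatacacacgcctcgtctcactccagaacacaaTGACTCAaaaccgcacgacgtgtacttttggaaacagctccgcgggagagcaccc
PFKFB3 locus, chr10:6239344-6239444: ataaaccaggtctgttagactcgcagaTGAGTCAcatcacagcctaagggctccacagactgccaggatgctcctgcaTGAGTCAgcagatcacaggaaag
SLC4A4 locus, chr4:71126868-71126968: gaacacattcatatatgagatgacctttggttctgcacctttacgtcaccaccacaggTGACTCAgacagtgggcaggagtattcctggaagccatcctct
TNS3 locus, chr7:47291613-47291713: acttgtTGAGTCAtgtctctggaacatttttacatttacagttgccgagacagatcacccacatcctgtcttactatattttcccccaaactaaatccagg
TWIST2 locus, chr2:238864333-238864433: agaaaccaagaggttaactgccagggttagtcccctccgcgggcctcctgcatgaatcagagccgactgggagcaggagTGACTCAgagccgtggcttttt
Of the 12 strongest loci, 3 had the consensus in this window, as did 5 of the 10 strongest promoters, against 1.46% of 145554 windows of the same length spread evenly over the assembly (1.40 to 1.52). Over all DPF3a summits the share was 22.1%, which the 3 of 12 are near. It was 8.79% of all promoter peaks. Among the 50 promoter peaks with a fold enrichment over 15, which include these 10, it was 42.0% (29.4 to 55.8), which the 5 of 10 are near. MEFV and PFKFB3 each held 2 copies.

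Strong binding was also found without the consensus in the window, as in the following sites, which are shown for contrast.
PAPPA locus, chr9:116288854-116288954: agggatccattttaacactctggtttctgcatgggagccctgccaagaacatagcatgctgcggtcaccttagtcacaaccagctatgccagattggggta
MCM3AP locus, chr21:46269602-46269702: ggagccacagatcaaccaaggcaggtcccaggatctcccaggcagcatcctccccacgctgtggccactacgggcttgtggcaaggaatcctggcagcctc
ANKRD1 promoter, chr10:90921313-90921413: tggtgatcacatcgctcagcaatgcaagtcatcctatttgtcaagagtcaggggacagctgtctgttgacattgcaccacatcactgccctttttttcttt
At PAPPA the nearest copy lay 79 bp from the summit, outside the window, and none was found within 100 bp of the summits at MCM3AP and ANKRD1. No match says only that these letters are not in the window.

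The strongest loci were ranked by fold enrichment, the peak caller's ratio of summit reads to local background reads with 1 added to each. The first pair of the 12, close to runs of unknown bases, is described below. The other 10 had fold enrichments between 20.2 and 22.1, with 86 to 174 reads at the summit. The first of these was in an intron of PAPPA (chromosome 9, summit at 116288904), which encodes a metalloproteinase that cleaves IGF-binding proteins. It lay 135 bp upstream of the antisense transcript PAPPA-AS2 and rose to 164 reads over a background of 6.46 reads. The next, with 22.1 and 86 reads over 2.94, was in FOXN3 (chromosome 14, summit at 89137734), the gene of a forkhead repressor, 43010 bp downstream of its nearest start.

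Other sites of this rank were in genes of receptors, enzymes and their regulators. LGR5 (chromosome 12, summit at 71557131), a receptor for R-spondins, had 20.8 in a later intron. CACNG2 (chromosome 22, summit at 36577243), an auxiliary subunit of AMPA receptors, had 20.8 in its second intron, 8211 bp from the nearest start. NT5C2 (chromosome 10, summit at 103273153), a cytosolic nucleotidase of purines, had 20.3 at a site 3394 bp downstream of a start. The same site lay in or up to 5000 bp upstream of INA, the gene of a neuronal intermediate filament. MCM3AP (chromosome 21, summit at 46269652), a factor of messenger RNA export, had 20.3 with 174 reads. Sites in the second introns of ACYP2, an acylphosphatase (chromosome 2, summit at 54012116), and RIN2, a regulator of RAB5 (chromosome 20, summit at 19815719), had 20.6 and 20.2. The remaining sites of the 10 lay on chromosome 12 outside protein-coding genes at 33795787 and 91438549, with 21.7 and 20.7. All 12 of the loci touched a SMAD4 peak by at least 1 bp, and 8 touched a p300 peak. Over all DPF3a summits these shares were 67.8% and 22.8%. The counts of 12 and 8 include the first pair, whose peaks had 34.6 and 30.1 in the SMAD4 list and 19.7 and 17.1 in the p300 list. The value of 34.6 is the largest of the SMAD4 list, and 95% of p300 peaks were at or under 6.89. Values of this size were rare, since 9103 peaks (17.7%) were over 10, 903 (1.76%) over 15 and 19 over 20.

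Copies of the summit sequence elsewhere in the assembly were counted for each window, over its 78 words of 24 bases. At 7 of the 12 loci, every word had 1 copy. Before them in rank, the sites at chromosome 3, 93470555, and chromosome 17, 26603854, had fold enrichments of 27.7 and 24.8, and lay 194 bp and 11168 bp from a run of unknown bases. In the chromosome 17 window the median word had 1204.5 copies and none had 1, whereas in the chromosome 3 window 75.6% had 1 copy. The ACYP2 window had a median of 220 copies and LGR5 a median of 1 with up to 628. The median was 2 at TRAPPC10, a promoter site described below, where no word had 1 copy. The part of such copies in these peaks was not tested. The order of the loci depended on the measure. By −log10 q, 2 of these 12 (MCM3AP and PAPPA) were still among the 12 on top, and by reads at the summit none was, and the sites on top by these measures had a higher local background, with a median of 11.5 reads by −log10 q and 12.9 by summit reads. The site with the largest −log10 q, 200.5, was on chromosome 9 at 79256948, with 223 reads over a background of 10.1 reads and a fold enrichment of 20.1, outside protein-coding genes.

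The distance from each summit to the nearest annotated transcript start was then examined. The median distance was 7056.5 bp (6884 to 7192), with quartiles at 1055 and 21447 bp, while the median over the sequence of the assembly, at points 500 bp apart, was 14659 bp. Summits within 1000 bp of a start made up 24.7% (24.3 to 25.1), and 42.3% (41.8 to 42.7) were more than 10000 bp away. The share within 100 bp of a start, 10.5%, was 10.6 times the share of sequence there, and that from there to 1000 bp was 2.28 times. Between 1000 and 10000 bp, the summits were about as frequent as the sequence (ratios of 0.994 and 0.987), and beyond it they thinned out, to a ratio of 0.843 up to 50000 bp, 0.582 up to 100000 bp and 0.398 up to 500000 bp. The last class, over 500000 bp, held 3 summits, or 0.00583%, against 1.76% of the sequence. Counted in steps of 100 bp, the highest number, 2980 summits, was in the 100 bp downstream of starts, with 2407 in the 100 bp upstream. Within 1000 bp, 49.3% of the summits were on the upstream side (48.5 to 50.2). Among the other lists, the median distance was 4398 bp for SMAD4 and 1759.5 bp for p300.

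**Figure D1:**
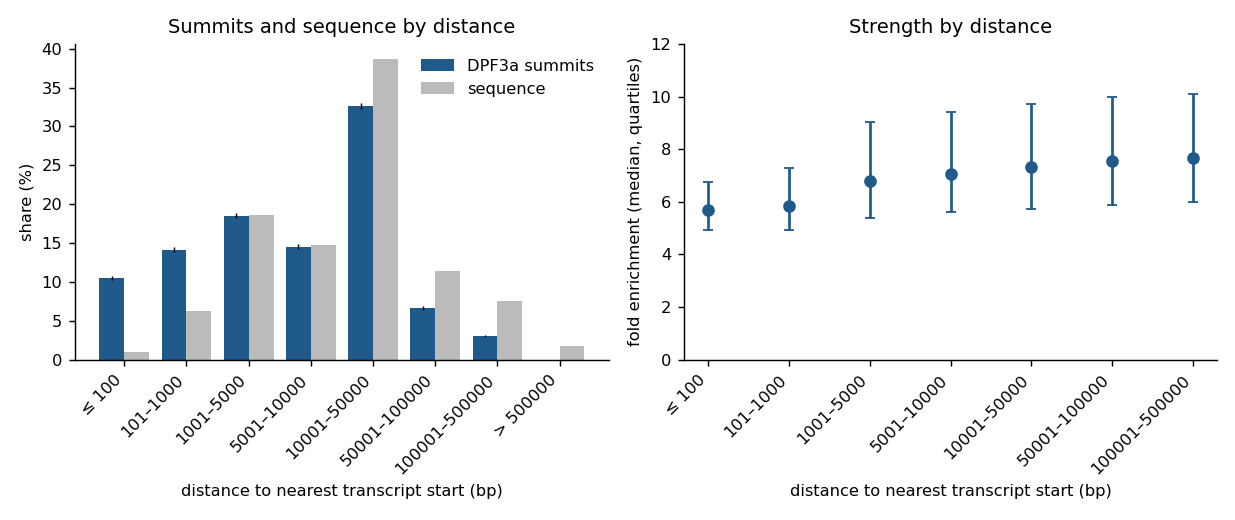
Left, share in percent of DPF3a summits (blue, error bars are 95% Wilson intervals) and of assembly sequence (grey) by distance in bp to the nearest transcript start; right, median fold enrichment of the peaks in each class with quartiles, without the class over 500000 bp, which held 3 peaks. Summits exceed sequence within 1000 bp of a start and fall short of it beyond 10000 bp, and the median fold enrichment goes from 5.70 to 7.67 with distance.

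Peaks far from starts had the higher fold enrichment. The median fold enrichment was 5.70 within 100 bp of a start and was higher in each class further out, up to 7.67 between 100000 and 500000 bp. For promoter summits, taken as those from 1000 bp upstream to 100 bp downstream of any start, the median was 5.76 (quartiles 4.93 and 6.92), and for distal summits, over 10000 bp away, it was 7.37 (quartiles 5.77 and 9.77), a ratio of 1.28. Of the distal peaks, 22.99% were over 10 (22.4 to 23.6), against 6.35% of the promoter peaks (5.90 to 6.84). Distal peaks as a class were also higher in reads, with a median of 26 against 22, over a lower local background, 2.54 against 3.02 reads. Reads did not rise with distance throughout. Their median was 21 within 100 bp, 28 between 1000 and 5000 bp and 23 between 100000 and 500000 bp. The median backgrounds there were 2.88, 3.2 and 2.16 reads. Promoter peaks were wider, 636 bp against 510 bp. In the SMAD4 list the order was the opposite, with a distal to promoter ratio of 0.795, and in the p300 list the ratio was 1.04. No replicate values exist to test these differences, and fixation and antibody differ between the lists.

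Each summit was next assigned to the gene of its nearest start. Protein-coding genes took 54.1% (53.7 to 54.5), lncRNA genes 26.5% (26.1 to 26.9), pseudogenes 12.2% and small RNA genes 6.31%. Of the annotated starts, 66.8% belong to protein-coding genes, 21.9% to lncRNA genes and 7.36% to pseudogenes. A total of 23805 of 62062 genes were nearest to at least 1 summit, among them 57.7% of protein-coding genes and 35.5% of lncRNA genes. Summits assigned to protein-coding genes lay at a median of 3935.5 bp, those of lncRNA genes at 10455 bp and those of pseudogenes at 14754 bp. Taking first the gene whose body holds the summit raised the protein-coding share to 63.2%.

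Position within genes was taken from the canonical transcripts of protein-coding genes. First exons held 4.83% of the summits (4.65 to 5.02) on 0.240% of the sequence, a ratio of 20.2. First introns held 14.8% (14.5 to 15.1), at 1.62 times their share of sequence, second introns 6.54% at 1.15 times and later introns 19.8% at 0.889 times. Later exons held 2.01%, a ratio of 0.916, and 52.0% of the summits were outside these transcripts. Among the 38742 summits more than 1000 bp from any start, first introns still held 13.8% (13.4 to 14.1), 1.58 times their share of such sequence, against 1.35 times for second introns and 1.03 times for later ones. The median fold enrichment was 5.56 in first exons, 6.21 in first introns and 7.14 in later introns.

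A promoter peak was found at 8346 of 19970 protein-coding genes, which is 41.8%, and a summit in the gene or up to 5000 bp upstream at 13185, which is 66.0%. For lncRNA genes these shares were 13.7% and 37.7% of 18756. Of the protein-coding genes, 4000 had promoter summits only, 4839 had summits elsewhere but not in a promoter, and 1089 had 2 or more promoter summits. In all, 8567 summits were in promoters of protein-coding genes, and 991 of them were shared by 2 or more such genes. The strongest promoter peak of a gene had a median fold enrichment of 5.76, and at 383 genes (4.59% of those with one) it was over 10.

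The strongest promoter peaks belonged to genes of varied function, and 7 of the 10 lay at a start inside an exon or intron of the canonical transcript. MEFV, which encodes pyrin, a sensor of the inflammasome, was on top with a fold enrichment of 19.1 at 628 bp upstream (chromosome 16, summit at 3257261). TRAPPC10, of a vesicle-tethering complex, had 17.9 (chromosome 21, summit at 44095855). ARHGEF2, the microtubule-bound activator of RHOA, had 17.2 in an exon of its canonical transcript, 167 bp upstream of another start, and all 3 of its summits were at promoters of its own starts. MAP3K7CL, related to the kinase TAK1, had 17.0 and the exoribonuclease DIS3L2 had 16.8. COL16A1, a fibril-associated collagen, had 16.3 at 24 bp from an internal start. LY6K, a GPI-anchored protein of the Ly6 family, had 16.02, the interleukin-21 receptor IL21R 15.8, the tubulin-modifying enzyme TTLL10 15.7 and SPNS3, of the spinster family of transporters, 15.7. Of these 10 promoter peaks, 9 touched a SMAD4 peak, the exception being TTLL10, and 7 touched a p300 peak. Over all promoter summits these shares were 91.5% and 57.6%, so the 9 of 10 are near the share of all promoters.

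Summits were unevenly spread over genes. Genes with any had a median of 2 (quartiles 1 and 3), and 6147 genes had 1. At the other end, 526 genes (2.63%) had 10 or more and took 21.2% of the 36226 pairs of a gene and a summit. RUNX1, a transcription factor that acts with CBFβ, had the most, 52, over 1217 kb on chromosome 21 (34787801 to 36004667). Its summits had fold enrichments from 3.78 to 15.7 with a median of 6.81, 39 of them touched a SMAD4 peak and 12 a p300 peak, and 13 had AP-1 within 50 bp. Over all DPF3a summits these shares were 67.8%, 22.8% and 22.1%, and those of RUNX1 were close to them. KAZN, which encodes a protein of cell junctions, had 42. FRMD4A, a scaffold of cell polarity, and RAD51B, of homologous recombination, had 41 each. AOPEP, an aminopeptidase, had 34, 6 of them at promoters of its own starts, and IQCJ-SCHIP1 had 33, of which 6 were also in IQCJ and 3 in SCHIP1. PRICKLE2, of planar cell polarity, had 32, none of which touched a p300 peak. ENSG00000285708, GPC6 and KALRN had 31 each. The first of these overlaps FOXP1, a forkhead transcription factor, and 25 of its 31 summits were also in that gene. GPC6 encodes a glypican and KALRN an exchange factor for small GTPases. At GPC6, 12 of the 31 summits touched a SMAD4 peak, the lowest share of these 10 genes, and at RAD51B 35 of 41 did, the highest.

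Gene length went with these counts. Over protein-coding genes, the Spearman correlation of summit number and length was 0.58, given as a description across genes, which are not independent. Of genes over 300 kb, 93.9% had a summit, against 38.4% of those up to 10 kb, while the number of summits per 100 kb went the other way, from 4.66 in the shortest class to 1.54 in the longest. Counting summits closer than 2000 bp once left RUNX1 with 46 and kept 9 of the 10 genes among the 10 with most. With a score over 200, RUNX1 had 22 summits, and 4 of the 10 genes were still among the 10 with most.

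**Figure D2:**
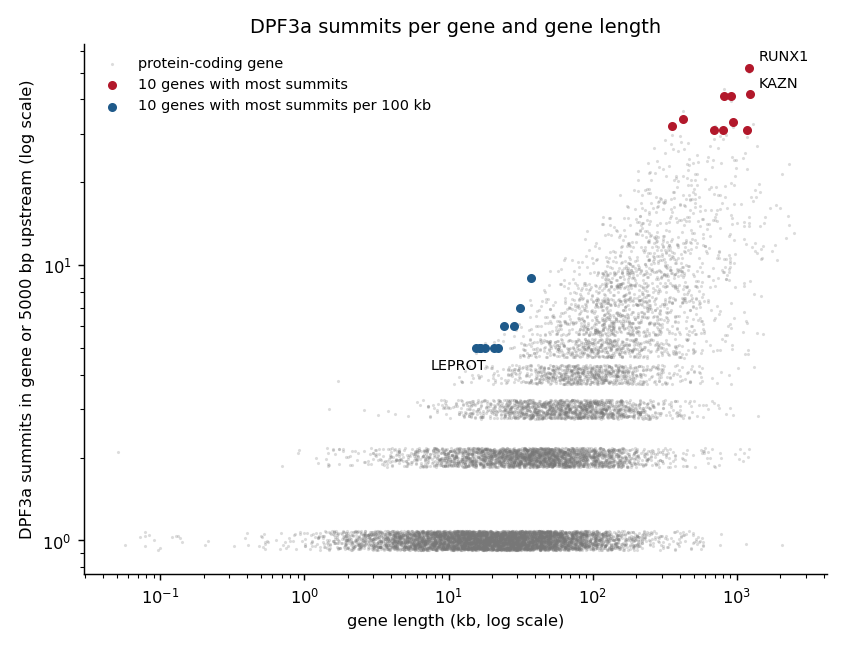
Number of DPF3a summits in each protein-coding gene or up to 5000 bp upstream against gene length in kb, both on log scales, for genes with at least 1 summit (grey, spread slightly on the vertical axis). The 10 genes with most summits (red) are 353 kb or longer, and the 10 with most per 100 kb (blue) lie to their left, with 5 or more summits.

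Short genes with several summits were ranked by summits per 100 kb, among genes of 10000 bp or more with at least 5 summits. LEPROT, which encodes an endosomal protein that regulates receptor traffic, had 5 summits at 24.5 per 100 kb. LTBR, the lymphotoxin beta receptor, had 23.2, LFNG, a glycosyltransferase that modifies NOTCH, 23.1, and SLC20A1, a phosphate transporter, 21.8. ATPSCKMT, a methyltransferase of the ATP synthase c subunit, had 20.4, ALDH3B1, an aldehyde dehydrogenase, 19.5, DHRS9, a retinol dehydrogenase, 19.2, ERRFI1, an inhibitor of EGFR, 18.6, and RIPOR1, a regulator of cell polarity, 17.98. Over all genes with a summit the median was 4.14. At these genes the median fold enrichment of the summits was between 3.67 at SLC20A1 and 7.87 at DHRS9, against 6.70 over all peaks, and at ALDH3B1 and DHRS9 the strongest was over 10.

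Among lncRNA genes, PVT1 had the most summits, 37, with a median fold enrichment of 5.88. Of these, 34 touched a SMAD4 peak (91.9%, against 67.8% of all DPF3a summits). DELEC1 had 31, of which 7 were also in TNC, the gene of tenascin C. CASC15 had 28, with a strongest value of 17.3, DLEU1 had 27, of which 14 were also in DLEU7, and ENSG00000259345 had 27. Reads do not tell which of the overlapping genes such a site belongs to.

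The functions of the bound genes were described with 24 gene lists. For each, the share of members with a promoter peak was set beside the 41.8% of all protein-coding genes, and the share with a summit in the gene or upstream beside 66.0%. The promoter share was above that of all genes in 11 lists and below it in 13. The highest shares were those of AP-1 subunits and partners (13 of 16, 81.3%), Hippo effectors and targets (15 of 20) and SWI/SNF subunits (21 of 29, 72.4%). Integrins and focal adhesion (67.6%), actin cytoskeleton (66.7%), hypoxia response (65.4%), TGF-β and BMP signalling (64.7%) and cell cycle (62.9%) followed. The lowest were olfactory receptors (2 of 400, 0.500%), blood cell markers (1 of 27, 3.70%), replication-dependent histones (4 of 68, 5.88%) and hepatocyte markers (2 of 23, 8.70%). The lists are short, and for 9 of the 24 the interval includes the share of all genes. The share with a summit also goes with gene length, for which no correction was made. Median lengths were 97.9 kb for integrins, 61.0 kb for receptor tyrosine kinases, 54.1 kb for TGF-β and 53.6 kb for actin, against 27.5 kb for all protein-coding genes. Of genes over 30 and up to 100 kb, 78.5% had a summit, and of those over 100 and up to 300 kb, 87.9%.

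**Figure D3:**
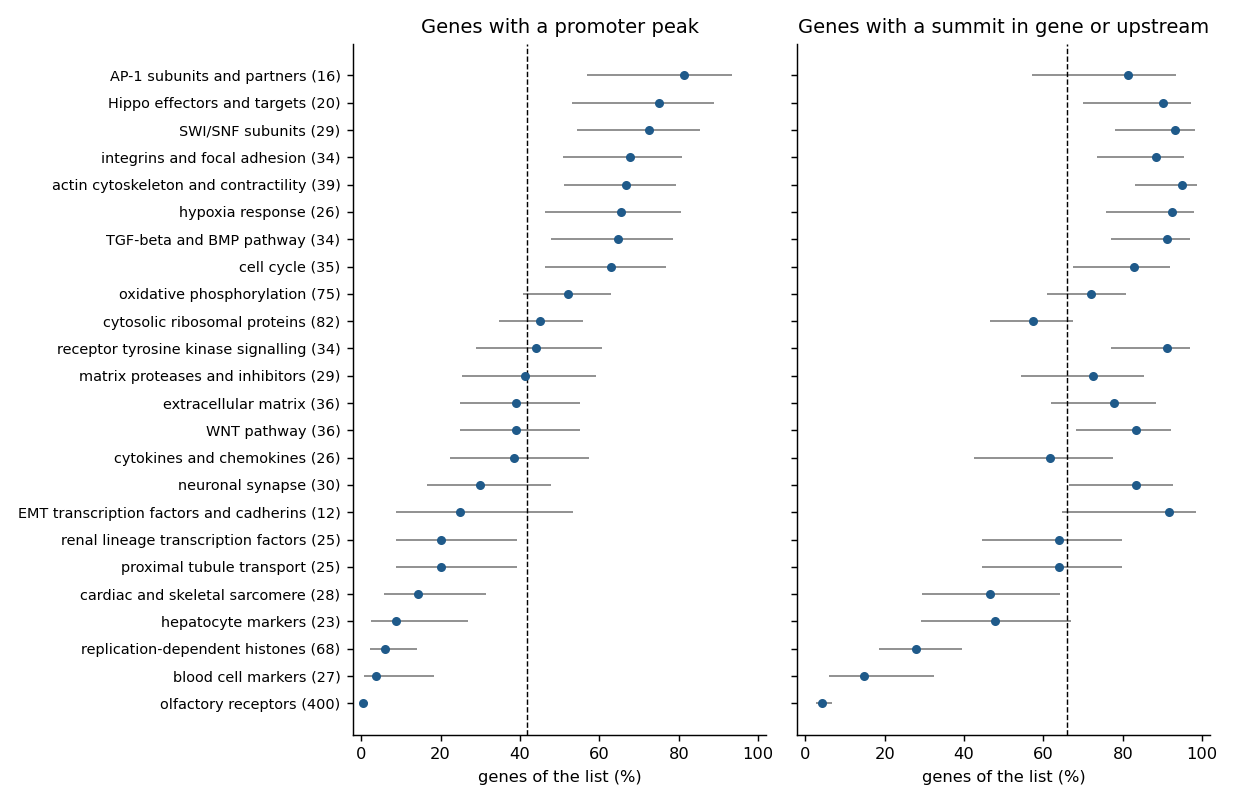
Share in percent of the members of each gene list (number of genes in parentheses) with a DPF3a promoter peak (left) and with a summit in the gene or up to 5000 bp upstream (right), with 95% Wilson intervals; dashed lines mark all protein-coding genes, 41.8% and 66.0%. Lists of adhesion, cytoskeleton and TGF-β signalling lie right of the line in the left panel, as do those of SWI/SNF, hypoxia and cell cycle. Lists of epithelial to mesenchymal transition, extracellular matrix, proteases and WNT lie left of it, and those of blood, liver and muscle left of the lines in both panels.

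In the account of the lists, the value given after a gene is the fold enrichment of its strongest peak. Counts of genes with a promoter peak or a summit stand beside the 41.8% and 66.0% of all protein-coding genes. In the TGF-β and BMP list, 22 of 34 genes had a promoter peak and 31 had a summit. LTBP1, which tethers latent TGF-β to the matrix, had 8 summits and the strongest, 14.2, at 88 bp from a start. The inhibitory SMAD7 had 12.7 at an internal start, and the co-receptor ENG had 12.3 in an intron. SMAD3, the receptor-regulated partner of SMAD4, had 16 summits, the most in the list, and was singled out after its values were seen. The ligands BMP2 and BMP4 and the receptor ACVRL1 had none. The median number of summits was 2.5, against 1 over all protein-coding genes, at a median length of 54.1 kb against 27.5 kb.

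In the list of epithelial to mesenchymal transition, promoter peaks were at 3 of 12 genes (interval 8.89 to 53.2%) and a summit was in or upstream of 11 (64.6 to 98.5%), and these intervals include the shares of all protein-coding genes. With promoters of 1000 bp on both sides the share was 58.3%, against 48.9% of all protein-coding genes. TWIST2, a basic helix-loop-helix factor, had 17.0 in its first intron (chromosome 2, summit at 238864383), E-cadherin, CDH1, had 8 summits with up to 13.5, the homeobox factor PRRX1 had 12.8 and cadherin CDH11 had 11.3, and none of these 4 had a promoter peak. TWIST1 had no summit.

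Adhesion, matrix and cytoskeleton genes often had several sites each. Of integrins and focal adhesion genes, 30 of 34 had a summit, with a median of 4, at a median gene length of 97.9 kb. This share was 88.2% (73.4 to 95.3). It was 78.5% for genes over 30 and up to 100 kb, the class of that median length. For genes over 100 and up to 300 kb it was 87.9%, and the interval includes both. The strongest were at ARHGEF7, an exchange factor for RAC (15.3), TNS3, a tensin (13.5, with 16 summits, 5 of them at promoters of its own starts), ITGB3, the integrin beta 3 chain (13.4), and LPP, a zyxin-related protein with 27 summits (13.0). FERMT1, GIT1, ITGB4 and TGFB1I1 had none. In the extracellular matrix list, 14 of 36 had a promoter peak and 28 a summit. COL16A1, described above, was followed by COL4A2, a basement membrane collagen with 19 summits (15.2), COL5A2 (14.2) and COL12A1 (13.1). Among proteases and inhibitors, 12 of 29 had a promoter peak, and the strongest sites were intronic, at ADAMTS12 (18.4), ADAM12 (14.7, with 20 summits), TIMP2 (12.8) and ADAMTS9 (11.5), none of which had a promoter peak. For actin and contractility, 37 of 39 genes had a summit, led by the myosin kinase MYLK (14.8), supervillin SVIL (13.7), smooth muscle actin ACTA2 (13.4) and palladin PALLD (11.6, with 26 summits). MYL9 and TAGLN had none.

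Among the lists with the highest promoter shares, peak strength differed. At AP-1 subunits and partners the median promoter value was 4.83, under the 5.76 of all genes with a promoter peak, and 1 of the 16 had a summit over 10, ATF3 with 10.7. ATF7 had 9.11, BATF3 8.91 and MAFK 8.71, while BATF, FOS and JUNB had no summit. In the Hippo list the median promoter value was 8.30. VGLL4, a competitor of YAP at TEAD factors, had 18.0 in an intron, the target ANKRD1 15.3 at its promoter (chromosome 10, summit at 90921363), LIMD1 13.9 and WWTR1, which encodes TAZ, 13.4 with 16 summits. TEAD2 and VGLL3 had none. Of SWI/SNF subunits, 27 of 29 had a summit, and the strongest were DPF3 itself (15.6, in an intron), the PBAF subunit PBRM1 (15.04), ARID1B (10.8) and DPF1 (9.95). ACTL6B, a neuronal subunit, and SMARCB1 had none.

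Hypoxia genes, which clear cell renal carcinomas are known to switch on through loss of VHL, had a promoter peak at 17 of 26. The glycolytic regulator PFKFB3 had 11 summits with up to 15.5 (chromosome 10, summit at 6239394) and no promoter peak. BNIP3L, of mitophagy, had 15.5, and the lipid droplet protein HILPDA had 14.5 at its promoter (chromosome 7, summit at 128455669). That summit was 171 bp upstream of the nearest start, which belongs to another gene. The prolyl hydroxylase EGLN3 had 11.7. ADM and LOX had none. As a check of the kidney lineage, PAX8 had 5 summits with up to 9.13, PAX2 4 with up to 8.82, CDH16 a promoter peak of 10.9, and CA9 and EMX2 1 each upstream, while LHX1 had none. Binding at these genes does not measure their expression. Of renal lineage factors, 5 of 25 had a promoter peak and 16 a summit, led by ELF5 (13.6), TFAP2A (10.2), MECOM (10.03) and EHF (9.71). Of tubule transport genes, also 5 of 25 had a promoter peak. Their strongest sites, at AMN (13.2), the bicarbonate transporter SLC4A4 (12.8), the cation transporter SLC22A2 (11.8) and the glucose transporter SLC5A1 (11.6), were outside promoters and each had AP-1 within 50 bp, whereas over all summits of the list 13 of 65 did, which is not above the 22.1% of all DPF3a summits.

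For signalling lists, 31 of 34 receptor tyrosine kinase genes had a summit, led by the receptors MERTK (15.4), ROR1 (14.8, with 29 summits), IGF1R (14.1, with 16) and the EGFR ligand TGFA (13.8), and DDR1, FLT4 and HGF had none. Of WNT genes, 30 of 36 had one, led by the transcription factor TCF7L2 (15.1), the co-receptor LRP5 (14.97), the ligand WNT2B (14.8) and TCF7L1 (14.5). Among cytokines, 16 of 26 had one, and CXCL8 (10.3) and CSF2 (9.36) had it in the first exon, CCL2 had 8.78 and IL6 8.77. Cell cycle genes had 29 of 35, and 1 was over 10, MCM7 with 11.4, followed by RB1 (9.65), CDK6 (9.07, with 19 summits) and AURKA (8.28).

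Promoter shares of housekeeping lists were not told apart from that of all genes. For oxidative phosphorylation, 39 of 75 genes (52.0%, 40.9 to 62.9) had a promoter peak, and for cytosolic ribosomal proteins 37 of 82 (45.1%, 34.8 to 55.9), with median promoter values of 5.50 and 5.12. With a score over 100 both lists were below the 19.9% of all protein-coding genes, which their intervals included (9.40 to 25.9% and 9.51 to 25.3%). SDHA (13.1), ATP5F1C (12.5), ATP5MG (12.5) and NDUFS7 (12.04) led the former, and RPL37A (10.8), RPS4X (10), RPL15 (9.20) and RPS3 (8.87) the latter. When the authors' score threshold of 50 was raised to 200, 4.96% of all protein-coding genes kept a promoter peak, along with 0 of the ribosomal and 0 of the cell cycle genes, 2.67% of the oxidative phosphorylation genes and 13.9% of extracellular matrix genes. The intervals of cell cycle (0 to 9.89%) and oxidative phosphorylation genes (0.734 to 9.21%) included this 4.96%. Genes used mainly in other tissues also had sites. Synapse genes had a summit in 25 of 30, with a median length of 126 kb, and the strongest were synaptotagmin SYT1 (16.5), the glutamate receptor subunits GRIA2 (14.8) and GRIN2A (14.1), and the kinase CAMK2A (13.8), while GABRB2, GRIN1, NLGN3 and SHANK3 were among those with none. Their density, 1.18 summits per 100 kb, was below the 2.45 of all protein-coding genes. Sarcomere genes had 13 of 28, led by the myosin light chain MYL2 (12.5), the troponin TNNI1 (10.3), nebulin NEB (9.77) and titin TTN (9.05). Hepatocyte genes had 11 of 23, led by HPX (15.6), AHSG (11.6), F2 (9.64) and FGB (9.27), and blood cell genes 4 of 27, at ITGAM (13.9), CSF1R (7.49), SPI1 (7.46) and GNLY (5.38). Histone genes had 19 of 68, led by H2AC25 (10.7), by H3C2 and H4C2, which share a summit of 8.47, and by H4C4 (6.32). Sites at genes not used in kidney may belong to a neighbour, and their targets were not tested.

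Consensus sequences were then compared between classes of summits. AP-1 was within 50 bp of 26.0% of the distal summits (25.4 to 26.6) and of 8.79% of the promoter summits (8.26 to 9.35), against 1.69% and 1.06% in windows of the same length centred 500 bp to either side. The distal to promoter ratio of the shares was 2.96. The share was higher in stronger peaks of both classes. At promoters it was 4.78% up to a fold enrichment of 5 and 42.0% over 15 (29.4 to 55.8, 50 peaks), and at distal sites 18.5% and 39.1% (35.0 to 43.3). With a score over 200 the ratio was 1.22. Where AP-1 was within 100 bp, it lay at a median of 34 bp from the summit. The 815 summits with 2 or more copies had a median fold enrichment of 9.18, those with any 7.83 and those without 6.45. Within distal summits these values were 8.09 with AP-1 and 7.11 without. The median GC content of the window was 64.4% at promoter and 44.6% at distal summits, so base composition differs between the classes.

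**Figure D4:**
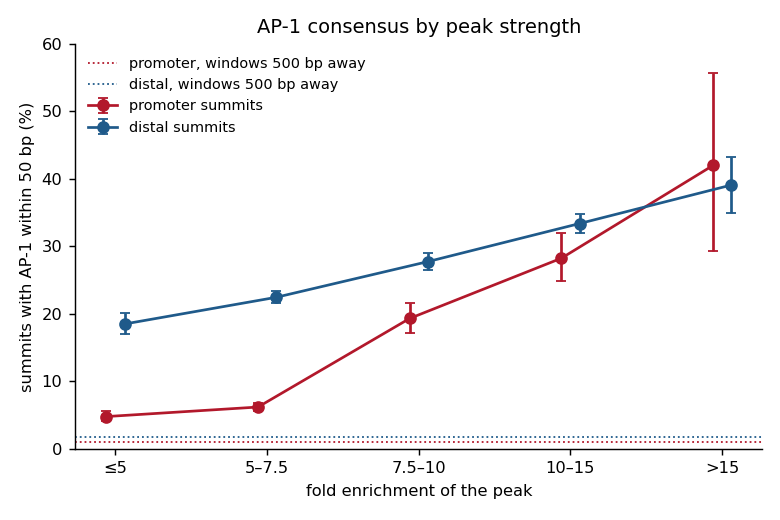
Share in percent of promoter (red) and distal (blue) DPF3a summits with the AP-1 consensus within 50 bp, by fold enrichment of the peak, with 95% Wilson intervals; dotted lines are windows of the same length 500 bp away. The share goes from 4.78% to 42.0% at promoters and from 18.5% to 39.1% at distal sites.

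RUNX and TEAD sequences were likewise more frequent at distal summits, and ETS and SP1 sequences at promoter summits. RUNX (TGTGGTT, both strands) was at 8.80% of the distal and 2.56% of the promoter summits, against 1.64% and 1.08% 500 bp away and 1.84% over the assembly. TEAD (GGAATGT, both strands) was at 5.47% and 1.92%, against 1.32% and 1.003%, and 1.59% over the assembly. At promoter summits the share was 1.196% against 0.0920% distal for ETS and 8.12% against 0.336% for SP1. SP1 was also frequent in the windows next to promoter summits (3.72%), against 0.283% over the assembly, where ETS was in 0.0502%. CEBP, NFI, CTCF, NRF1 and CRE were each in 78 or fewer of all summit windows, and were rarer still in windows 500 bp away. The ratio of these shares was 8 for NFI, 4.5 for CEBP, 2.93 for NRF1, 2.79 for CRE and 1.29 for CTCF. For CRE the shares were 0.152% (0.122 to 0.189) and 0.0544% (0.0419 to 0.0707). The intervals of the 2 shares overlapped for CTCF but not for the others. The SMAD palindrome was in 3 promoter and 17 distal windows, with intervals that overlap those of the windows 500 bp away.

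The other 2 factors were seen more often at promoter sites. Of the promoter summits, 91.5% were in peaks that touched a SMAD4 peak (91.0 to 92.0) and 57.6% in peaks that touched a p300 peak (56.6 to 58.5), while for distal summits these shares were 58.7% and 11.7%. By gene list, p300 was touched at 50 of 71 summits in or near oxidative phosphorylation genes (70.4%) and at 31 of 61 of ribosomal genes (50.8%), against 27.9% of the summits in or upstream of protein-coding genes, and at 0 of 21 of olfactory receptor genes, a count whose Wilson interval reaches 15.5%. SMAD4 was touched at 70 of 81 summits of hypoxia genes (86.4%, 77.3 to 92.2) and at 77.2% of those of TGF-β genes (69.1 to 83.8), against 71.1% of the summits in or upstream of protein-coding genes, which the latter interval includes. Lists differ in their share of promoter summits, 69.0% for oxidative phosphorylation and 26.0% for TGF-β genes, and its part in these shares was not tested.

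Peak density differed between chromosomes. It was 17.7 per Mb overall and ranged from 7.45 on the X chromosome, 12.1 on chromosome 14 and 12.6 on chromosome 13 to 23.1 on chromosome 22 and 25.1 on chromosome 19. Over the 23 chromosomes the Spearman correlation of peak density with the density of protein-coding genes was 0.68, and with the median local background of the peaks 0.79, both as descriptions, since depth, copy number and gene content are shared by all peaks of a chromosome. No input library is named, so it is not known whether this background was taken from the same reads as the peaks. The median background was 1.71 reads on X and 1.90 on chromosome 14, against 3.42 on chromosome 7. Copy number in these cells and the density of sites cannot be told apart here. The median fold enrichment moved the other way, with 7.32 on chromosome 13 and 5.99 on chromosome 19.

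**Figure D5:**
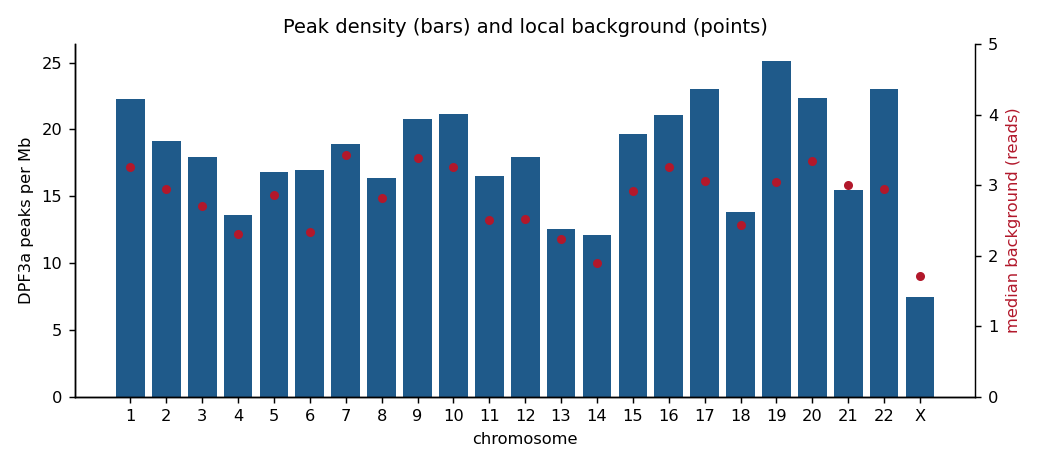
DPF3a peaks per Mb of known sequence (bars, left axis) and median local background of the peaks in reads (points, right axis) by chromosome. Chromosome 19 has the most peaks per Mb, 25.1, and X the fewest, 7.45, along with the lowest background, 1.71 reads.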

How the data were processed

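DPF3a binding was measured by ChIP-seq in 2 libraries of 786-O cells that overexpress HA-DPF3a. Per the methods and the submitters' processing notes, the authors mapped reads to hg38 with Bowtie2 2.3.5.1, removed reads of low mapping quality and duplicates, and called peaks with MACS2 2.2.5. No input library is named, and how the replicates were combined is not stated. The deposited list gives a score, which the authors kept over 50, the fold enrichment (a ratio to local background), and −log10 p and −log10 q. Scores as deposited hold −log10 q times 10 without its decimals. Whole reads at the summit and the background were recovered from the fold enrichment and −log10 p, and gave back the deposited −log10 p within 0.000694. A peak had 11 to 223 reads at its summit, with a median of 25. Raw depth is not given by the files.

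Summits were assigned with GENCODE 44 in Python 3.11.15 with numpy 2.4.6, pandas 2.3.3 and scipy 1.17.1. All 36226 pairs of a summit and a gene, and all 51440 distances, equalled those of bedtools 2.31.1, and the code was tested on simulated summits and reads. A further 90 peaks on other sequences were left out. A peak of another list was touched at an overlap of 1 bp. Consensus sequences were matched exactly on both strands. Members and gene lists were chosen with earlier results of these data known. Genes were named by rule: the 12 strongest loci over 20000 bp from a run of 1000 or more unknown bases, the 10 strongest promoters, the 10 genes with most summits and the 10 with most per 100 kb (among those of 10000 bp or more with 5 or more), the 5 lncRNA genes with most, and the 4 strongest members of each list with all members without a summit where these were 5 or fewer. Olfactory receptor genes were counted only, and some genes that the rule names are not reported here. Alternatives were scores over 100 and 200, other promoter widths, other starts, other upstream windows, other measures of strength and other motif windows.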

Additional observations from a re-analysis of the deposited data

How the results depend on the processing

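No paired analysis was possible because the DPF3a list was made from both replicates, so leaving out a replicate was not possible either. All alternatives were planned, and causes of changes were not tested except where an alternative shows its own (fewer peaks or fewer starts). Under a score over 100 and over 200, fewer peaks were left by construction, 31984 and 16158. The median distance to a start became 8310 and 9942 bp, 15751 bp with protein-coding starts only and 12801 bp with canonical starts only, where fewer starts are used. The share of summits nearest to a protein-coding gene became 51.3% and 47.8% under the higher scores and 63.2% when the gene holding the summit came first. Promoter peaks were left at 3965 and 991 protein-coding genes, and a summit in the gene or upstream at 5036 with a score over 200. The ratio of distal to promoter strength was 1.26 and 1.12 under the higher scores, 1.49 by −log10 q and 1.18 by summit reads, so distal peaks were stronger under each. Of the 12 strongest loci, 2 were among the 12 by −log10 q and 0 by summit reads. The distal to promoter ratio of AP-1 shares was 2.71 within 100 bp, 2.12 with a score over 100 and 1.22 with a score over 200. The other 13 values of the main results stayed within the interval or within 1.5 times of the count, and none reversed. Lists above the share of all protein-coding genes numbered 11 to 15 of 24, but 11 lists changed side under at least 1 alternative. With a score over 200, cell cycle, ribosomal and oxidative phosphorylation genes were below it, and the lists of epithelial to mesenchymal transition, matrix, proteases, tubule transport, cytokines, WNT and synapse above. The intervals of matrix (6.08 to 28.7%) and ribosomal genes (0 to 4.48%) excluded the 4.96% of all protein-coding genes. Those of the other lists named here included it, so their side is not settled. Genes with 10 or more summits numbered 223 and 41 under the higher scores, against 526. Counting error limits peaks of few reads, of which 14.0% had under 15 at the summit.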
